A study of Mus musculus with 6 samples.

Results

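This report describes 10 genes of the interleukin-4 (IL-4) response, out of 55421 genes in the table, in splenic B cells with and without the RNA-binding protein hnRNPL. The genes were chosen by name as the receptor chains (*Il4ra*, *Il2rg*, *Il13ra1*), the receptor-bound kinases (*Jak1*, *Jak3*), the transcription factor *Stat6*, a target gene (*Fcer2a*) and the brakes (*Cish*, *Socs1*, *Socs3*) of the cytokine used to stimulate the cells. Both groups carried the *Rosa* mT/mG reporter, which turns from tdTomato to GFP where Cre has acted, and CD21-cre, which acts mainly in mature peripheral B cells. The 3 WT libraries came from mice of the genotype CD21-cre, and the 3 hnRNPL-deficient libraries from mice that in addition had both *Hnrnpl* alleles floxed (hnRNPL F/F CD21-cre). All 6 cultures were stimulated with IL-4 at 5 ng/ml together with LPS at 5 μg/ml, and GFP+ cells were sorted after 24 h. No unstimulated, IL-4-free or LPS-free sample was available, so every value below is a level in stimulated cells. The parts of IL-4 and LPS in these levels cannot be told apart. Mice of both sexes, older than 6 weeks, were used.

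The type I IL-4 receptor pairs IL-4Rα with the common γ chain, which IL-2, IL-7, IL-9, IL-15 and IL-21 receptors also use, whereas the type II receptor pairs IL-4Rα with IL-13Rα1. JAK1 on IL-4Rα and JAK3 on the γ chain phosphorylate the receptor tail, on which STAT6 docks, is phosphorylated and moves to the nucleus to bind genes such as *Fcer2a* and the germline transcripts of IgG1 and IgE. Cytokine signals also induce the SOCS family, whose members CIS, SOCS1 and SOCS3 block JAKs or receptor docking sites and recruit a ubiquitin ligase.

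Reads assigned to genes ranged from 40395186 to 75180749 per library, and 24009 to 26283 genes were detected. The targeted gene followed the labels: *Hnrnpl* was at 24174 to 25580 normalized counts in WT and 1297 to 2178 in hnRNPL-deficient libraries. A normalized count is a read count divided by the library's size factor, and 1 read was worth 0.765 to 1.37 of them. The 6 B cell markers summed to 274249 to 350783 in WT and 266462 to 312660 in hnRNPL-deficient libraries, and none of the 6 was called. Of the 7 myeloid markers *S100a8* and *S100a9* were at 0 in every library and *Lyz2* and *Cd14* were at 0 in all but 1, while *Adgre1*, the F4/80 antigen, was called higher. It gave 236 to 315 in WT and 1217 to 1369 in hnRNPL-deficient libraries, out of a list sum of 260 to 331 and 1239 to 1382. The 6 T cell markers summed to at most 37.5 in any library, and the 3 NK cell markers to at most 5.80. Among the T cell markers *Cd8b1* was called lower (28.9 ± 3.34 to 8.38 ± 5.88). Only its WT mean lay above 10 normalized counts, the minimum for testing, so this fall is a description. Of the 3 plasma cell markers *Jchain* was called lower (84.1 ± 50.4 to 14.7 ± 8.24), while *Prdm1* (log2 fold change −0.04) and *Sdc1* (−0.14) were not called. The 3 summed to 1640 to 1838 in WT and 1389 to 1907 in hnRNPL-deficient libraries. *Xist*, transcribed in female cells, was near 98507 in WT library 3 and 98219 in hnRNPL-deficient library 2 and at most 7.2 in the other 4, so each group held 1 library with *Xist*.

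A gene was called at a limma adjusted p under 0.1 when its mean also differed by 1.5-fold or more, and the 17640 genes tested were those averaging 10 or more normalized counts. All 10 IL-4 response genes passed that minimum. By this rule *Socs3* was the 1 gene of the 10 that passed, and it fell in hnRNPL-deficient B cells. None of the 10 was called higher, against 7.28% of all genes tested, and 1 was called lower, against 4.08%. At an adjusted p under 0.1 and any fold change the count was also 1 of 10, against 18.0% of all genes tested. The 3 hnRNPL-deficient values lay wholly outside the 3 WT values for 3 of the 10 genes (*Socs3* and *Stat6* below, *Il2rg* above), against 34.0% of all genes tested. The fitted change was below 0 for 9 of the 10 with a median of −0.15 on the log2 scale, and below 0 for 9304 of all genes tested with a median of −0.03. In 7 of the 9 genes not called, *Il4ra*, *Il2rg*, *Jak1*, *Jak3*, *Stat6*, *Fcer2a* and *Cish*, the 95% interval lay within a 1.5-fold change in either direction. The intervals of *Il13ra1* and *Socs1* were too wide for that. These intervals are not adjusted for the number of genes. RNA came from a bulk of sorted cells, so fewer cells that transcribe a gene and less RNA per cell cannot be told apart.

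**Figure D1:**
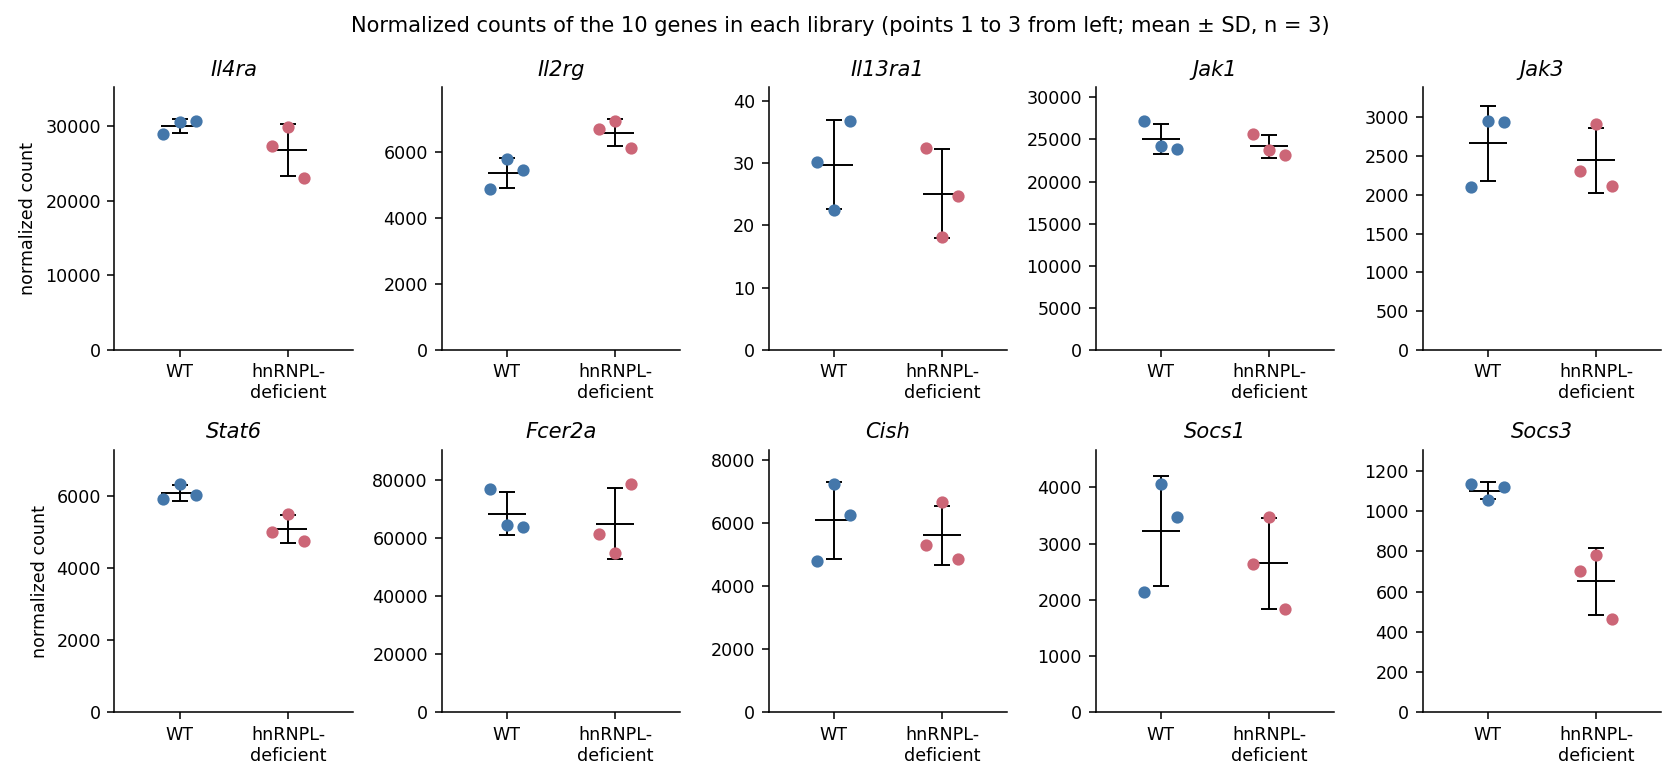
Normalized counts of the 10 genes in the 3 WT (blue) and 3 hnRNPL-deficient (red) libraries, with libraries 1 to 3 from left to right and the mean ± SD in black. The groups are apart for *Il2rg*, *Stat6* and *Socs3*, whose hnRNPL-deficient values reach at most 783 against at least 1054 in WT.

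Of the receptor chains, *Il4ra* (chr7:125552120-125579474, + strand, GRCm38), which encodes the IL-4-binding chain, gave 28934, 30535 and 30660 normalized counts in WT and 27409, 29914 and 23064 in hnRNPL-deficient libraries. The ranges overlapped, with hnRNPL-deficient library 3 lowest. The log2 fold change was −0.17 (SE 0.116, 95% interval −0.44 to 0.09, limma adjusted p = 0.375), which bounds the change between 0.739-fold and 1.07-fold of WT.

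*Il2rg* (chrX:101264378-101268255, − strand), which encodes the common γ chain, gave 4879, 5773 and 5445 in WT and 6686, 6925 and 6130 in hnRNPL-deficient libraries. Every hnRNPL-deficient value was above every WT value, and the mean was 22.6% above that of WT (5366 ± 452 against 6580 ± 408, SD, n = 3 each). The log2 fold change of 0.30 (SE 0.102, interval 0.06 to 0.53) had an unadjusted p of 0.0185 and an adjusted p of 0.102 by limma, so the gene was not called. With *Xist* as a covariate the change was 0.29 (limma adjusted p = 0.135). A read-through gene on the same strand, *Gm20489*, overlaps *Il2rg* and was listed at 0 in all 6 libraries, and reads that fit both could not be assigned.

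*Il13ra1* (chrX:36112110-36171259, + strand), which encodes the second chain of the type II receptor, had few reads. It gave 30.2, 22.5 and 36.7 normalized counts in WT and 32.5, 18.2 and 24.7 in hnRNPL-deficient libraries, with overlapping ranges. In the 5 libraries whose read counts could be recovered these were 26, 26 and 48 reads in WT and 36 and 18 reads in hnRNPL-deficient libraries 1 and 3, and the exact Poisson interval for 18 reads ran from 10.7 to 28.4. The log2 fold change of −0.25 had an interval of −1.05 to 0.55, which is 0.482-fold to 1.47-fold of WT. A fall or a rise within these bounds was not resolved.

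Neither kinase was called. *Jak1* (chr4:101152367-101265282, − strand) gave 27140, 24220 and 23815 in WT and 25662, 23739 and 23108 in hnRNPL-deficient libraries. The fitted log2 fold change was −0.05 (interval −0.28 to 0.17, limma adjusted p = 0.774), and its sign turned under 4 alternative settings. *Jak3* (chr8:71676296-71690575, + strand) gave 2105, 2948 and 2947 in WT and 2305, 2918 and 2116 in hnRNPL-deficient libraries. WT library 1 was the lowest of the 6, and the log2 fold change was −0.12 (interval −0.51 to 0.27, limma adjusted p = 0.683). *Gm12785* overlaps *Jak1* and *Insl3* overlaps *Jak3* on the same strand, at no more than 63.1 and 6.88 normalized counts in any library.

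*Stat6* (chr10:127642986-127660957, + strand), the transcription factor through which the receptor acts on genes, gave 5923, 6342 and 6040 in WT and 5007, 5509 and 4760 in hnRNPL-deficient libraries. All 3 hnRNPL-deficient values were below all 3 WT values, and the mean was 16.6% lower (6102 ± 216 against 5092 ± 381, SD, n = 3 each). The log2 fold change was −0.26 (SE 0.0947, interval −0.48 to −0.05), with an unadjusted p of 0.0226 and an adjusted p of 0.115 by limma, so it was not called. Its nearest fold bound to 1.5-fold was 0.718-fold of WT.

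**Figure D2:**
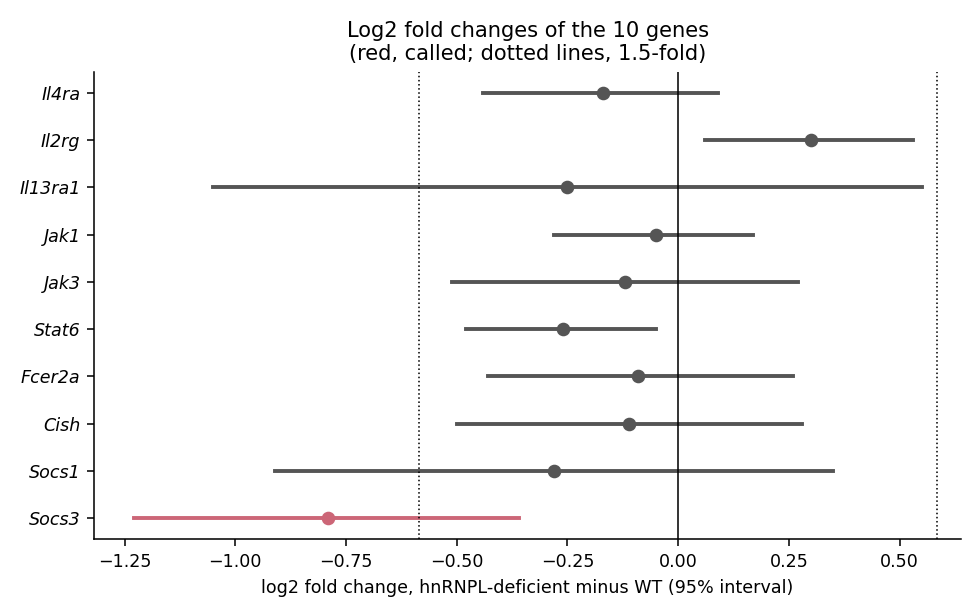
Log2 fold change (hnRNPL-deficient minus WT) of each of the 10 genes with its 95% limma interval, with dotted lines at a 1.5-fold change and the 1 called gene in red. The interval of *Socs3* lies wholly below 0 (−1.23 to −0.36), and those of *Il13ra1* and *Socs1* are the widest.

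*Fcer2a* (chr8:3681737-3694175, − strand), which encodes the low-affinity IgE receptor CD23 and is a marker of follicular B cells, gave 76900, 64610 and 63912 in WT and 61545, 54933 and 78649 in hnRNPL-deficient libraries. The highest and the lowest of the 6 values were both in hnRNPL-deficient libraries. The log2 fold change was −0.09 (SE 0.153, interval −0.43 to 0.26, limma adjusted p = 0.753), with a sign that turned under 5 alternative settings. Markers of marginal zone B cells, which carry little CD23, moved in both directions: *Cr2* and *Cd1d1* were called higher and *Dtx1* lower, and the 5 markers summed to 8498 to 9918 in WT and 8360 to 11916 in hnRNPL-deficient libraries. *Ighd*, the IgD constant gene and the other follicular marker listed, averaged 27854 ± 935 in WT against 21683 ± 1242 in hnRNPL-deficient libraries, lower in all 3 but under 1.5-fold (−0.36, limma adjusted p = 0.0402). The part of the make-up of the sorted cells in the *Fcer2a* values was not tested.

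Of the 3 brakes *Socs3* passed the test and *Cish* and *Socs1* did not, and the differences between their changes were not tested. *Socs3* (chr11:117966079-117970047, − strand), whose product binds receptor tails and JAKs, gave 1134, 1054 and 1118 in WT and 703, 783 and 465 in hnRNPL-deficient libraries. The WT libraries lay within a narrow band and every hnRNPL-deficient library was below it, with library 3 lowest. The mean fell from 1102 ± 42.3 to 650 ± 165 (SD, n = 3 each), to 59.0% of WT, a log2 fold change of −0.79 (SE 0.192, interval −1.23 to −0.36, limma adjusted p = 0.0334). The exact two-sided permutation test gave p = 0.1, the smallest that 3 libraries against 3 allow. The call was lost without WT library 3 (log2 fold change −0.78, limma adjusted p = 0.112) and without hnRNPL-deficient library 3, where the change was under 1.5-fold (−0.57, limma adjusted p = 0.0347). In the 4 fits that left out another library it stayed called.

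*Cish* (chr9:107296026-107302784, + strand), whose product CIS competes for receptor docking sites, gave 4813, 7248 and 6255 in WT and 5323, 6667 and 4867 in hnRNPL-deficient libraries. The ranges overlapped throughout, and the log2 fold change was −0.11 (interval −0.50 to 0.28, limma adjusted p = 0.707). *Socs1* (chr16:10782240-10785536, − strand), whose product inhibits the JAK catalytic domain, gave 2140, 4057 and 3479 in WT and 2633, 3467 and 1837 in hnRNPL-deficient libraries. Its values varied about as widely within WT (coefficient of variation 30.5%) as within hnRNPL-deficient libraries (30.8%), whereas those of *Socs3* varied by 3.84% and 25.5%. The *Socs1* log2 fold change of −0.28 had an interval of −0.91 to 0.35 (limma adjusted p = 0.546) and ranged from −0.55 to −0.04 when 1 library was left out.

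As the genes that answer IL-4 are bound by STAT6 at a spaced palindrome, the 250 bases before each annotated start were searched for TTCNNNNGAA, the spacing STAT6 prefers, and TTCNNNGAA, the spacing of other STATs. Both motifs read the same on both strands. All 10 genes matched the RefSeq promoter table (GRCm38.p6), with 12 starts, and 2 genes held a motif, *Fcer2a* and *Socs3*, each at a start that lies inside the span of the gene annotation given above. The first motif stood in 5.85% and the second in 7.02% of the 32851 promoter windows of that length, and either in 12.4%. The windows shown are those in which a motif was found, and windows without a motif are not shown. The *Socs3* sequence ends where an annotated exon begins, and capitals mark the motif, at 168 to 159 bases upstream for *Fcer2a* (chr8:3690862-3691111, − strand) and 154 to 146 upstream for *Socs3* (chr11:117969452-117969616, − strand).
Fcer2a: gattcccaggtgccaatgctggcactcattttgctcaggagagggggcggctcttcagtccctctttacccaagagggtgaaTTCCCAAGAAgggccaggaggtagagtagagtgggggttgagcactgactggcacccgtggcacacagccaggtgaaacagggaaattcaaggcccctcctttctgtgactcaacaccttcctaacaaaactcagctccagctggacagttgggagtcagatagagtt
Socs3: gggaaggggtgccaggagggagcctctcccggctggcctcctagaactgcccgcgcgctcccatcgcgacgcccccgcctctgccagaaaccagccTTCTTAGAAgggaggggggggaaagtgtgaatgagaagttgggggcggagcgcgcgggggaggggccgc
No other of the 10 genes held either motif in its windows, which says only that these letters are not there.

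Levels of different genes were compared per kilobase of exon. Full exon lengths were used, although reads that fit both a gene and an overlapping gene on the same strand could not be assigned. The levels of *Il2rg*, *Jak1* and *Jak3*, which have such a neighbour, may therefore be too low, by an amount that was not tested. In WT, *Fcer2a* was highest at 22146 ± 2363 normalized counts per kilobase (SD, n = 3), above 99.1% of the genes tested. *Il4ra* followed at 5006 ± 160, *Jak1* at 3467 ± 251 and *Il2rg* at 2248 ± 190, each separate from its neighbour in all 3 libraries. *Stat6* (1386 ± 49.1), *Socs1* (1109 ± 338) and *Cish* (951 ± 191) came next and overlapped with their neighbours in that order. *Jak3* (498 ± 90.9) and *Socs3* (381 ± 14.6) were lower, and their closest WT values, 393 and 392, did not overlap but were nearly the same. *Il13ra1* was last at 8.02 ± 1.92, above 7.15% of the genes tested. The hnRNPL-deficient means stood in the same order, although *Cish* was above *Socs1* in WT library 1 and in hnRNPL-deficient library 3. In hnRNPL-deficient libraries *Socs3* was at 225 ± 57.2 and moved from the percentile 63.7 to 52.3 among genes tested.

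**Figure D3:**
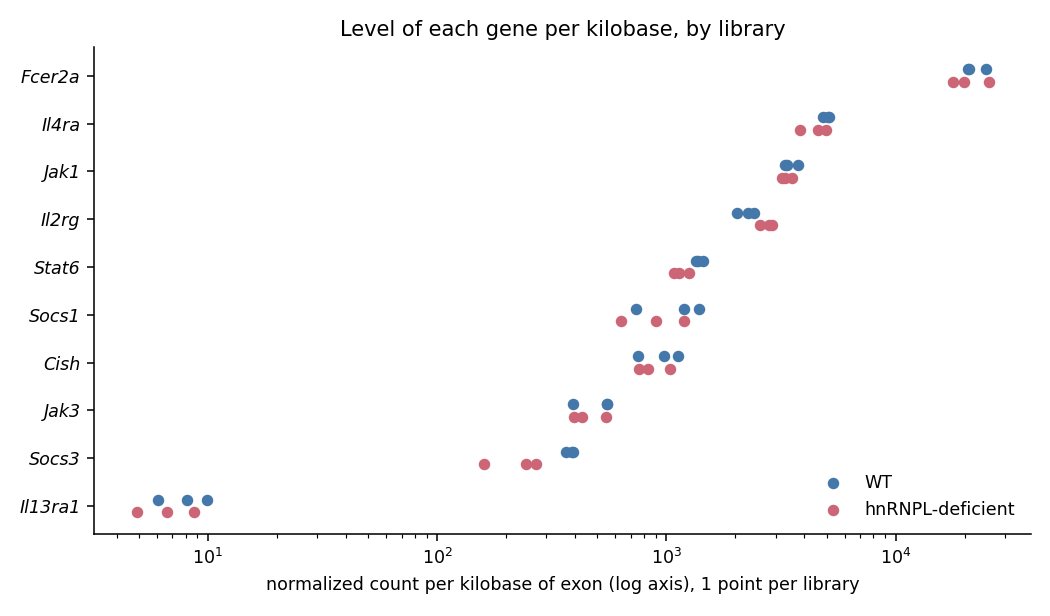
Normalized count per kilobase of exon (log axis) of the 10 genes in each WT (blue) and hnRNPL-deficient (red) library, sorted by the WT mean. *Fcer2a* is highest and *Il13ra1* lowest in every library, and the points of *Stat6*, *Socs1* and *Cish* overlap with those of their neighbours.

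The receptor chains were then set against each other within each library. As the *Il2rg* level leaves out reads that also fit *Gm20489*, the size of each ratio that holds *Il2rg* is uncertain. *Il4ra* transcripts per kilobase exceeded *Il2rg* transcripts 2.36-, 2.10- and 2.24-fold in WT and 1.63-, 1.72- and 1.5-fold in hnRNPL-deficient libraries. The 2 groups did not overlap, and the mean ratio was 2.23 ± 0.128 in WT and 1.62 ± 0.112 in hnRNPL-deficient libraries (SD, n = 3 each). The log2 ratio differed by −0.47 (exact two-sided permutation p = 0.1, the smallest the design allows, and 0.3 when adjusted over the 3 ratios tested). The ratio of *Il4ra* to *Il13ra1* overlapped (650 ± 169 against 706 ± 272, exact permutation p = 0.8), and *Il2rg* exceeded *Il13ra1* by 294 ± 92.0 in WT and 433 ± 142 in hnRNPL-deficient libraries (exact permutation p = 0.3, adjusted 0.45). In every library *Il13ra1* was at least 231 times lower per kilobase than either type I chain.

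Within the 8 SOCS family genes (*Cish* and *Socs1* to *Socs7*), *Socs3* made up 12.7%, 9.01% and 10.6% of the summed level per kilobase in WT and 7.15%, 7.32% and 5.68% in hnRNPL-deficient libraries. The 2 groups did not overlap. *Cish* held 26.3 ± 1.92% and 26.4 ± 1.89% (SD, n = 3 each), and *Socs1* held 30.4 ± 5.81% and 27.1 ± 4.98%. The family sum overlapped, at 3594 ± 474 per kilobase in WT and 3309 ± 441 in hnRNPL-deficient libraries. These shares are descriptions, with no test of their own.

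**Figure D4:**
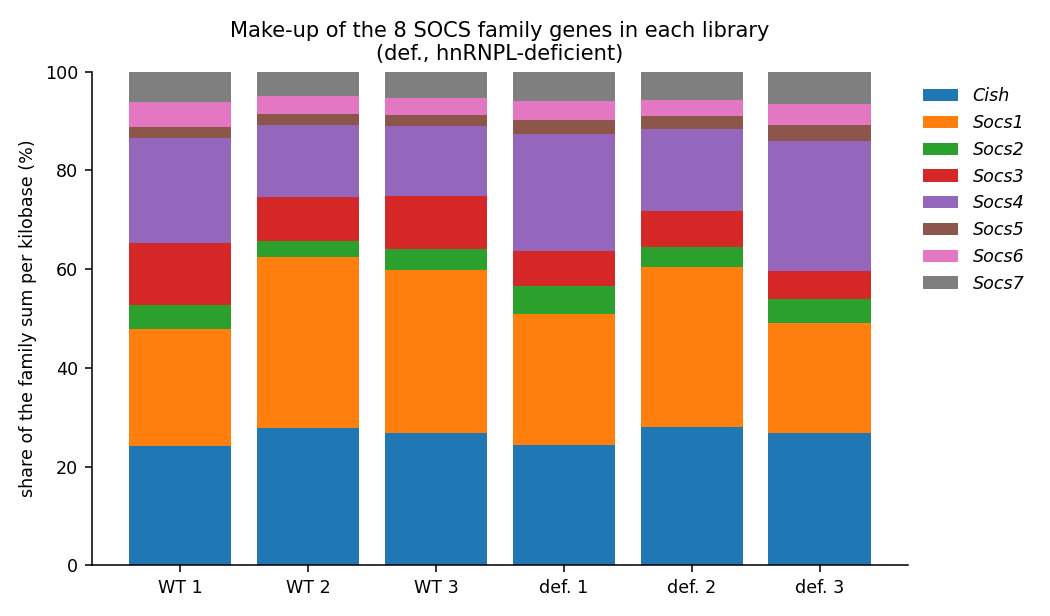
Share of the summed level per kilobase of the 8 SOCS family genes held by each gene (%), in the 3 WT and 3 hnRNPL-deficient (def.) libraries. *Socs3* (red) takes 9.01% to 12.7% in WT and 5.68% to 7.32% in hnRNPL-deficient libraries.

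In the JAK family (*Jak1*, *Jak2*, *Jak3* and *Tyk2*), *Jak2* held 15.5%, 15.3% and 15.4% of the sum per kilobase in WT and 20.4%, 19.2% and 20.8% in hnRNPL-deficient libraries. *Jak1* held 68.1 ± 3.12% and 63.6 ± 1.26%, and *Jak3* 9.83 ± 2.01% and 8.69 ± 1.43%. Among the 7 STAT genes *Stat6* held 21.7%, 22.3% and 21.9% in WT and 19.3%, 20.4% and 18.9% in hnRNPL-deficient libraries. It was the largest STAT share in the WT mean, just above *Stat3* (20.6 ± 0.550%).

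Around the 10 genes, 67 further genes of the pathway were examined in 9 lists, of which 60 could be tested. The test called 2 higher and 4 lower, 10% of those tested against 11.4% of all genes tested, and the median log2 fold change was −0.06. Among other receptor chains of the γ chain and type 2 cytokine families 2 of 7 were called. *Il7r*, the IL-7 receptor chain and 1 of the 2 genes called higher, was at 4.64, 2.59 and 3.82 normalized counts in WT and 27.1, 28.3 and 37.0 in hnRNPL-deficient libraries. It passed the minimum mean only through the hnRNPL-deficient libraries, and with WT values near the limit of 3 reads its fitted log2 fold change depended on the pseudocount and tool (2.04 to 3.15), so it is given as a description. *Crlf2*, the TSLP receptor chain, fell from 380 ± 99.3 to 169 ± 41.5 (−1.16, limma adjusted p = 0.0277), a call that was lost without WT library 3 (limma adjusted p = 0.114). *Il21r*, the chain with the highest mean, was at 11893 ± 473 and 12759 ± 282 and was not called. *Il13ra2*, a decoy receptor for IL-13, was listed at 0 in every library.

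None of the 8 other JAK and STAT genes, 5 other SOCS genes, 9 phosphatase and PIAS genes, 4 genes of the SOCS box ubiquitin ligase and 8 genes of the IRS and PI3K arm was called. Their median log2 fold changes were 0.07, 0.11, −0.06, −0.04 and −0.03. The genes with the highest mean of these lists were *Stat3* (−0.19), *Socs4* (0.29), *Ptprc* (0.17), which encodes CD45, *Cul5* (−0.02) and *Grb2* (0.07). Named after their values were seen, *Jak2* (0.43, limma adjusted p = 0.0190), *Irs2* (0.52, limma adjusted p = 0.0329), which encodes the adaptor that couples IL-4Rα to PI3K, and *Pias2* (−0.41, limma adjusted p = 0.0402) passed the p threshold below a 1.5-fold change. Including *Il2ra*, *Pias3*, *Pik3ca*, *H2-Aa* and *Cd86*, 8 of the 60 genes tested did so, against 6.63% of all genes tested.

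Of the 6 genes that work with or against STAT6 at DNA, *Crebbp*, which encodes the coactivator CBP, gave 31075, 29305 and 30368 in WT and 13293, 15727 and 16775 in hnRNPL-deficient libraries. It fell to 50.5% of WT (log2 fold change −0.99, SE 0.109, limma adjusted p = 0.00148), and the call held in all 20 alternatives. Its paralog *Ep300* had a log2 fold change of 0.09 (limma adjusted p = 0.558). *Bcl6*, a repressor that binds sites like those of STAT6, rose from 1641 ± 179 to 2557 ± 159 (0.64, limma adjusted p = 0.0111), and was under 1.5-fold without WT library 1 (0.56) and with library weights (0.55). *Parp14*, a STAT6 cofactor and the gene of the list with the highest mean over all 6 libraries (in WT alone *Crebbp* was higher), was at −0.22 and was not called.

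Of 11 other genes that IL-4 induces in B cells, 2 were called lower and none higher, against 4.08% and 7.28% of all genes tested, and the median log2 fold change was −0.23. *Ighe*, the IgE heavy chain constant gene, gave 750, 407 and 408 in WT and 158, 207 and 155 in hnRNPL-deficient libraries, and fell by 1.53 on the log2 scale (SE 0.263, limma adjusted p = 0.00904). *Ighg1*, the IgG1 constant gene, fell from 8969 ± 1703 to 4462 ± 840 (−1.01, limma adjusted p = 0.00931). Counts of a constant gene hold germline transcripts and switched heavy chain mRNA together. *H2-Aa*, an MHC class II chain and the gene with the highest mean, was at 107316 ± 1712 and 85257 ± 2436 (−0.33, limma adjusted p = 0.0700), a change under 1.5-fold. Named after their values were seen, *Ccl22* (0.37), *Il4i1* (0.33) and *Nfil3* (0.26) had fitted log2 fold changes above 0 and were not called. The other genes of this list were below 0. Of the 8 ligands of these receptors, *Il4*, *Il13*, *Il9*, *Il21* and *Tslp* were listed at 0 in every library, which allows up to 2.29 to 4.11 normalized counts (3 reads) depending on the library. *Il2*, the ligand with the highest mean, was at 234 ± 53.4 and 280 ± 50.5 and was not called.

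**Figure D5:**
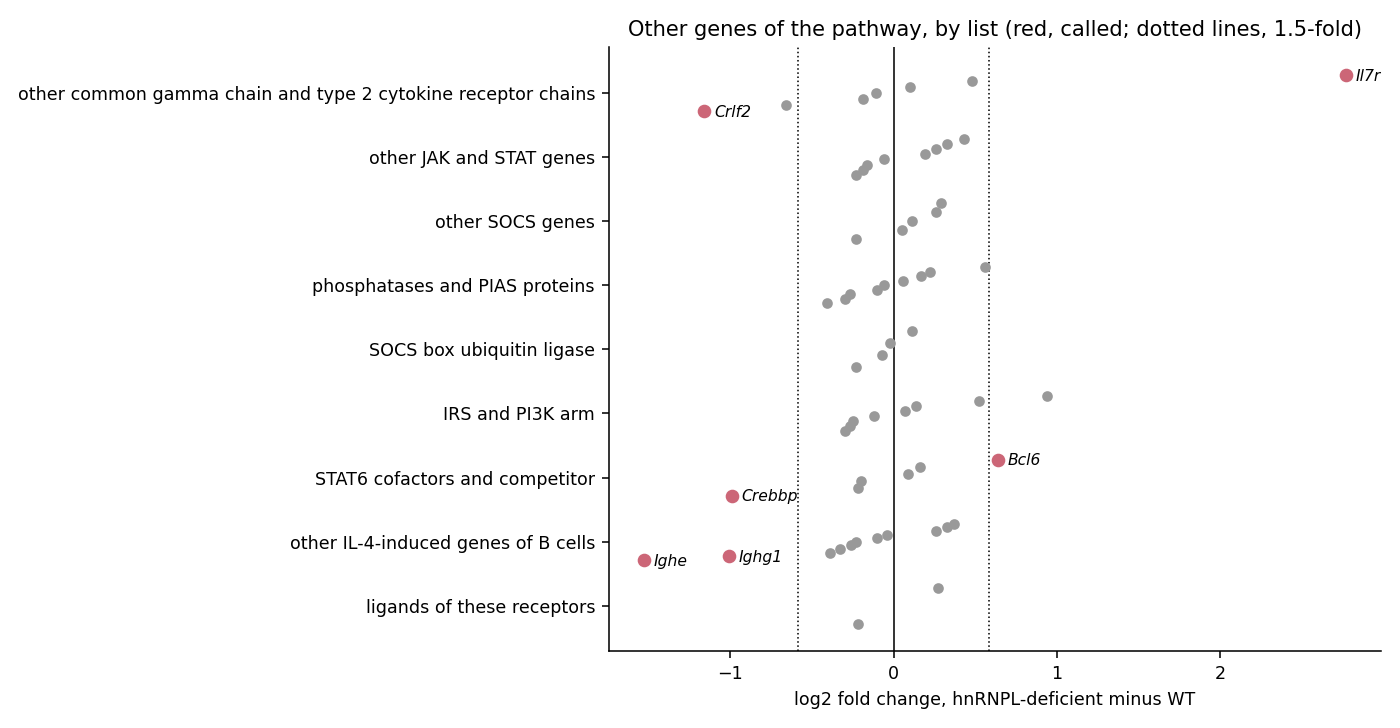
Log2 fold change (hnRNPL-deficient minus WT) of the 60 further pathway genes tested, by list, with called genes in red and named and dotted lines at a 1.5-fold change. *Il7r* lies farthest to the right and *Ighe* (−1.53) farthest to the left, and 5 lists and the ligands hold no called gene.

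The libraries of a group differed in a way that several of the 10 genes shared. For 6 of them (*Il4ra*, *Il2rg*, *Jak3*, *Stat6*, *Cish* and *Socs1*) the lowest WT value was in library 1 and the highest hnRNPL-deficient value in library 2, a pattern that 21.6% of all genes tested had. The pattern was defined after the values of these genes were seen, so its count among them is only a description. Genes were put in 3 equal bins by the GC content of their longest annotated transcript. In the highest bin the median deviation from the group mean was −0.11 in WT library 1 on the log2 scale. It was 0.12 in hnRNPL-deficient library 2 and −0.13 in hnRNPL-deficient library 3. In the lowest bin the deviations in these libraries were 0.09, −0.08 and 0.08. The highest bin held *Jak3* (60.95% GC), *Socs1* (58.8%), *Socs3* (58.7%), *Il4ra* (55.8%), *Stat6* (53.7%) and *Cish* (53.1%). With GC content and exon length corrected for in each library, *Socs3* was at −0.76 (limma adjusted p = 0.0164) and *Socs1* at −0.25 (limma adjusted p = 0.398). The changes of *Il4ra* (−0.09), *Cish* (−0.04) and *Jak3* (0.00) came nearer to 0, and that of *Il13ra1* went to −0.40, none of them called. *Stat6* (−0.23, limma adjusted p = 0.0623) and *Il2rg* (0.27, limma adjusted p = 0.0816) then passed the p threshold under 1.5-fold and so were not called.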

How the data were processed

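Poly(A) RNA of 6 cultures was sequenced. Per the labels and the methods of the study, the authors trimmed reads with fastp 0.23.1, aligned them with STAR 2.7.9a to mm10, counted them per gene by strand with featureCounts and normalized the counts with DESeq2 1.38.2. The values deposited by the authors are a normalized signal (counts divided by a size factor), so the count test of the study was not the main test. In 5 libraries whole reads were recovered from the value of 1 read, and the step of hnRNPL-deficient library 2 was too near 1 to claim this.

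From these values log2(normalized count + 1) was tested with limma 3.58.1 (R 4.3.3, trend) over genes with a mean of at least 10, with Benjamini-Hochberg adjustment over all of them, and fold changes are on that scale. edgeR 4.0.16 and DESeq2 1.42.0 were run on the recovered reads of 5 libraries. The fit was tested on simulated data. Exon lengths came from a GENCODE annotation of GRCm38 and covered 17615 of 17640 genes tested. Its release differs from that of the authors. One gene of the pathway lists is not reported here. The 10 genes and all lists were chosen with earlier results of these data known. Named were all 10 genes, in each list the called genes and otherwise the gene of highest mean count without regard to length, and the 3 genes whose pattern is most like that of *Socs3*. Some genes of the lists were named outside this rule, among them *Ep300*, *Il13ra2* and those marked as named after their values were seen. Per the study, the 3 libraries of each group came from 3 mice, so p-values measure the spread between mice. The study states that its figure with germline transcript counts from this RNA-seq compiles more than 1 experiment. The labels do not assign libraries to experiments, so the spread may hold a part between experiments, which was not tested. Depth limits *Il13ra1*, and intervals from reads cover counting error only.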

Additional observations from a re-analysis of the deposited data

How the results depend on the processing

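Over 20 alternatives in pseudocount, low-value filter, scaling, model, left-out library and tool, no call was gained among the 10 genes. *Il2rg* and *Stat6* kept their sign in every one, with limma, edgeR or DESeq2 adjusted p from 0.0375 to 0.251 and from 0.0444 to 0.289, and stayed under 1.5-fold. *Socs3* stayed called in 18 of 20, and its log2 fold change ran from −0.94 to −0.57 when 1 library was left out. Its adjusted p ran from 0.000563 (DESeq2 on the recovered reads of 5 libraries) to 0.112 (limma without WT library 3). The 5 libraries leave out hnRNPL-deficient library 2, which had the highest hnRNPL-deficient *Socs3* value. At an adjusted p under 0.05 and 2-fold, 0 of the 10 were called lower, and when 1 library was left out 0 to 1. Over all genes tested, leaving out 1 library gave 830 to 1111 higher and 478 to 696 lower (the lowest of each without WT library 3), the stricter thresholds 610 and 216, and no minimum fold change 1406 lower. Of the other pathway genes 1 was called higher under the stricter thresholds, 1 with a mean of at least 50 (which leaves out *Il7r*), 6 with no minimum fold change and 5 with GC and length corrected, and 8 lower with no minimum fold change. The correction for GC and length was chosen after seeing the data.

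The sign of 3 fitted changes near 0 turned. *Jak1* gave 0 with equal library totals, 0.08 with quantile normalization, 0.02 with library weights and 0.01 without WT library 1 (left-out range −0.09 to 0.01). *Fcer2a* gave 0.02 with quantile normalization, 0.08 by edgeR, 0.05 by DESeq2 and −0.23 to 0.03 when 1 library was left out. *Cish* gave −0.27 to 0.02 when 1 library was left out. The log2 difference of the *Il4ra* to *Il13ra1* ratio ran from −0.21 to 0.29 when 1 library was left out, with −0.06 without WT library 3. The causes were not tested.

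The values do not settle whether the replicate numbers pair the libraries, and the main fit took them as unpaired. Deviations of same-numbered libraries correlated at 0.43, 0.32 and 0.07. For WT libraries 1 and 2 the same-numbered hnRNPL-deficient library correlated best, whereas WT library 3 correlated better with hnRNPL-deficient library 2 (0.31). With the replicate block 1755 genes were called higher and 1018 lower, and *Socs3* was at −0.79 (limma adjusted p = 0.0109).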

Other observations

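The genes whose log2 values followed those of *Socs3* most closely over the 6 libraries were *Fcgrt*, the neonatal Fc receptor chain (Pearson r = 0.998), *Cltb*, clathrin light chain B (0.996), and *Rnpep*, an aminopeptidase (0.994). With 6 points that share 1 group difference, 326 genes tested had a correlation over 0.95. *Cltb* was at 961, 923 and 950 normalized counts in WT and 713, 722 and 543 in hnRNPL-deficient libraries, and, like *Socs3*, was lowest in hnRNPL-deficient library 3. *Fcgrt* was at 16.4 to 22 in WT and 0 to 5 in hnRNPL-deficient libraries, near the minimum for testing.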
